A study of Sus scrofa with 23 samples.

Results

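The TGF-beta ligands TGFB1, TGFB2 and TGFB3 were followed in articular cartilage of pigs with and without osteochondrosis, a disorder of growing joints marked by disturbed endochondral ossification. Every probe set of the Affymetrix Porcine Genome Array whose platform annotation gives exactly one of these gene symbols was taken, which gave 3 of 6765 genes that have a probe set annotated to them alone, and 8 of 23999 non-control probe sets. TGFB1 had 2 of these probe sets, TGFB2 had 4 and TGFB3 had 2. They are lettered within each gene (TGFB1-a and TGFB1-b, TGFB2-a to TGFB2-d, TGFB3-a and TGFB3-b), and the plot of values by sample gives the array identifier of each. No measured value entered the choice of probe sets for these genes, but the genes themselves were chosen with earlier results of these data known.

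The pigs were crossbred, Duroc x Pietrain, and came as sib-pairs of affected and non-affected animals. Cartilage was taken at 2 joint surfaces, the condylus medialis femoris of the knee and the medial part of the condylus humeri of the elbow, and total RNA was read on 1 array per sample. There were 4 arrays of affected and 5 of non-affected femoral cartilage, and 8 of affected and 6 of non-affected humeral cartilage. Arrays 1 and 2 of non-affected femur and arrays 5 and 6 of affected humerus were nearly identical and were averaged as 1 sample each, which left 4, 4, 7 and 6 samples. No age is given, sibs are not matched in the labels, and nothing states that each array had its own animal. The p-values therefore cover the spread among these samples, which may be partly technical.

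The 3 ligands are secreted as inactive complexes, in which the cytokine stays wrapped in its own propeptide and tethered to latent TGF-beta binding proteins of the matrix. Integrins, thrombospondin and proteases release it, and the free dimer brings the receptors TGFBR2 and TGFBR1 together, which phosphorylate SMAD2 and SMAD3 to act with SMAD4 in the nucleus. In growing cartilage these signals are known to favour matrix synthesis and to hold chondrocytes back from hypertrophy. Signals below are log2 values as deposited, with a floor at 4, and a difference of 1 is a 2-fold change on the linear scale. All 8 probe sets passed the filter on dim probe sets, and their lowest value on any array was 4.31.

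The tissue label was borne out by cartilage genes, since COMP, ACAN, COL2A1 and SOX9 lay between the 88.8th and the 99.9th percentile of all probe sets by mean signal. Cells other than chondrocytes were also read: macrophage genes (7 of 10 listed genes on the array, all above the filter) had sample means of 4.62 to 9.71, while 0 of 5 lymphocyte genes passed the filter. The spiked-in hybridisation controls separated the sites completely. The BioB control averaged 9.71 ± 0.12 (SD, n = 8) in femoral samples, from 9.54 to 9.83, and 8.19 ± 0.12 (SD, n = 13) in humeral samples, from 7.92 to 8.39. Within a site the controls were alike in affected and non-affected samples. A difference between sites therefore cannot be told apart from whatever set these control levels apart, and every comparison of femur with humerus below is read with that limit. One sample stood apart from its site: humerus non-affected 5 correlated better with the femoral samples (mean r = 0.934 over 16799 probe sets) than with the other humeral ones (mean r = 0.911), although its BioB level of 8.39 lay at the humeral level.

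**Figure D1:**
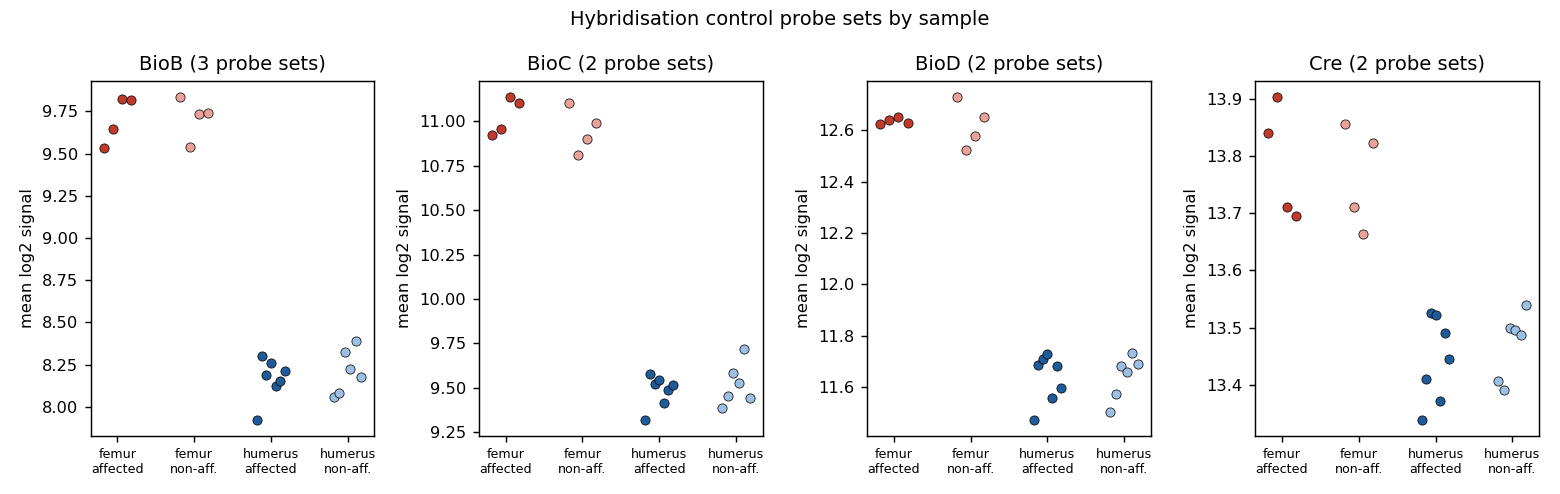
Mean log2 signal of the hybridisation control probe sets BioB, BioC, BioD and Cre (vertical axes) in each of the 21 samples, by group. Points are samples; for each control all 8 femoral samples lie above all 13 humeral samples, and affected and non-affected samples of a site lie together.

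The first question was whether affected cartilage carried more or less ligand messenger RNA than non-affected cartilage at the same site. TGFB1 gave the widest contrast between the sites: both of its probe sets had a higher mean in affected than in non-affected femur (differences of 0.51 and 0.46) and a lower mean in affected than in non-affected humerus (-0.70 and -0.74). Both TGFB3 probe sets had a lower mean in affected cartilage at both sites, with differences of -0.75 and -0.57 in the femur and -0.15 and -0.39 in the humerus. The 4 TGFB2 probe sets differed by between -0.33 and 0.12 in either site. None of the 8 passed the adjusted threshold of limma (adjusted p under 0.05 over 16799 probe sets) in either site, so these are differences of means that the fit across the array did not call.

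**Figure D2:**
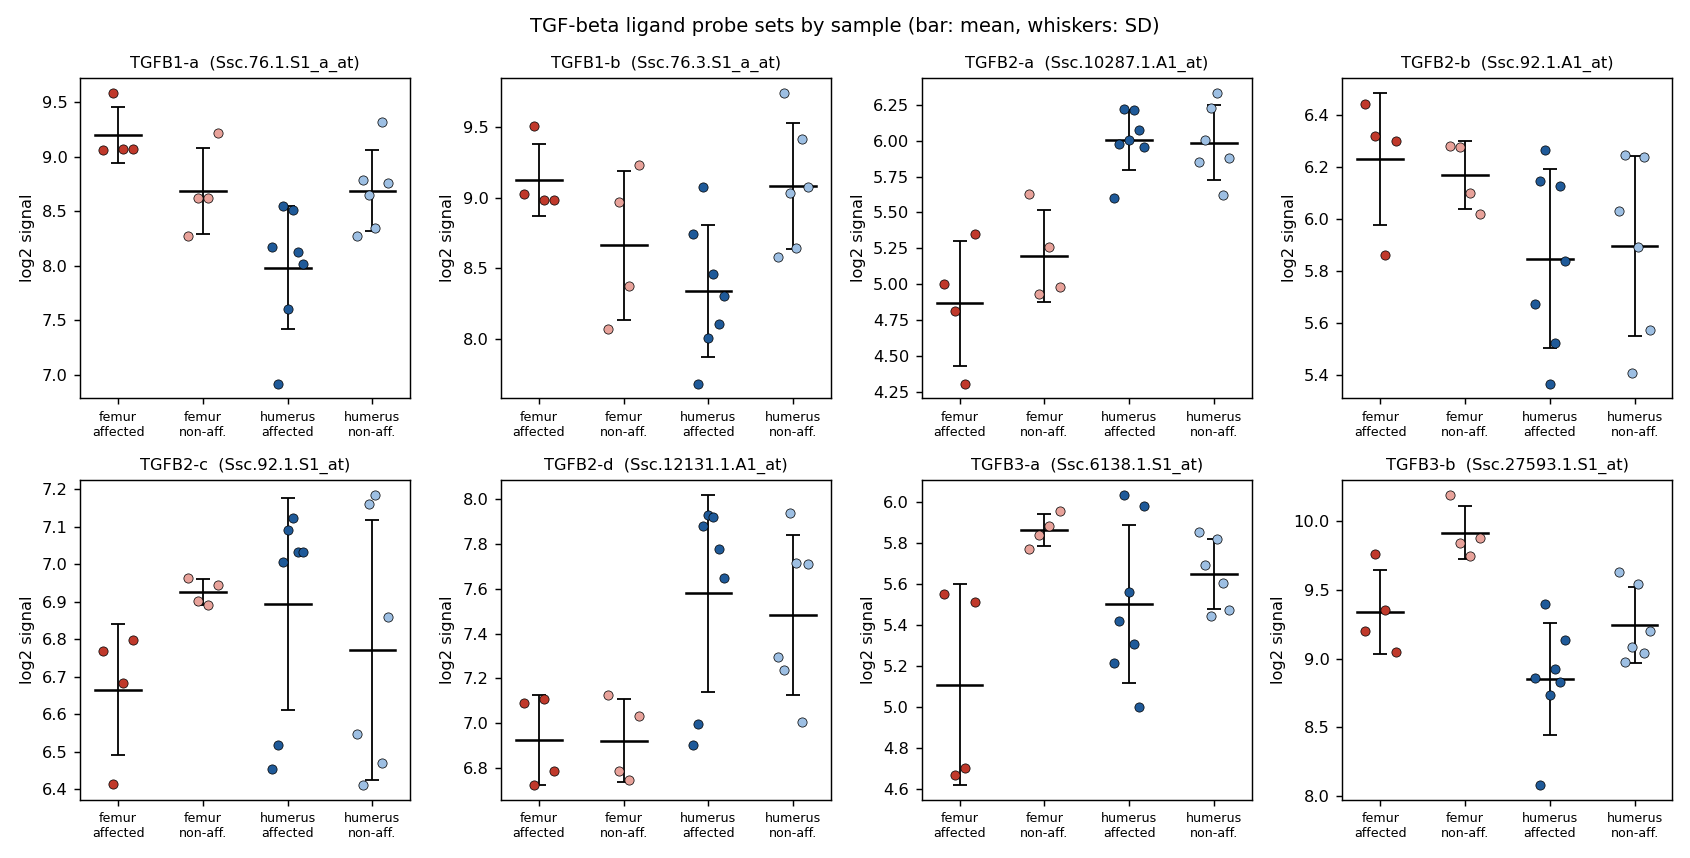
Log2 signal (vertical axis) of each TGFB1, TGFB2 and TGFB3 probe set in the 21 samples, by group (femur affected, femur non-affected, humerus affected, humerus non-affected). Points are samples, bars are group means and whiskers SD; in both TGFB1 panels the affected humerus has the lowest group mean (7.98 and 8.34) and the affected femur the highest (9.19 and 9.12).

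TGFB1, the most studied ligand of the family, was read by TGFB1-a in affected femur at 9.06, 9.58, 9.06 and 9.07, against 8.27, 8.62, 8.62 and 9.22 in non-affected femur. In the humerus the same probe set had a lowest, median and highest value of 6.92, 8.12 and 8.54 in 7 affected samples, against 8.27, 8.70 and 9.31 in 6 non-affected samples. In the femur 3 of the 4 affected samples were almost equal and one lay above them, and all 4 lay above the non-affected mean, while the highest non-affected sample exceeded 3 of them. In the humerus all 7 affected samples lay below the non-affected mean and 5 of them lay below every non-affected sample, so the groups overlapped in part.

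In the humerus TGFB1-a differed by -0.70 ± 0.23 (SE; 95% interval -1.18 to -0.22), or 0.614 times on the linear scale, with p = 0.00612 and an adjusted p of 0.641 by limma, and a two-sided exact permutation test of this probe set alone gave p = 0.0152. In the femur it differed by 0.51 ± 0.29 (95% interval -0.10 to 1.12; limma adjusted p = 0.324). The humeral difference was -0.53 without humerus affected 2, the lowest sample, and -0.58 without humerus non-affected 5, the highest of its group.

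The second TGFB1 probe set followed the first closely (r = 0.85 over the 21 samples and 0.82 after group means were subtracted). TGFB1-b had 9.02, 9.51, 8.99 and 8.98 in affected femur, against 8.07, 8.97, 8.38 and 9.23 in non-affected femur. In the humerus it ran from 7.68 through a median of 8.30 to 9.07 in affected samples, against 8.58, 9.05 and 9.74 in non-affected samples. Here too 5 of the 7 affected humeral samples lay below the lowest non-affected one. The difference was -0.74 ± 0.23 in the humerus (limma p = 0.00448, adjusted p = 0.641; exact permutation p = 0.0175) and 0.46 ± 0.30 in the femur (limma adjusted p = 0.38).

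The opposite signs at both sites were tested as an interaction, the femoral status difference minus the humeral one. It was 1.22 ± 0.37 for TGFB1-a (95% interval 0.44 to 1.99; limma adjusted p = 0.133) and 1.21 ± 0.38 for TGFB1-b (adjusted p = 0.138). The ligands' smallest interaction p-values were these 2, and neither was called. Among all 16799 probe sets limma called 45 in this comparison, or 0.268%, with 18.9% at an unadjusted p under 0.05, which 3 of the 8 ligand probe sets reached. In the additive model of site and status, TGFB1 differed by only -0.24 and -0.28 (limma adjusted p = 0.81 and 0.784).

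Several marker lists also differed by status beside TGFB1, and their part in its differences was not tested. The mean of the cartilage list (6 of 14 genes on the array, all above the filter) moved the same way as TGFB1. It was 11.96 in affected femur (range 11.75 to 12.34) against 11.46 in non-affected femur (11.19 to 11.69), and 11.62 in affected humerus (11.12 to 11.97) against 11.87 in non-affected humerus (11.60 to 12.09). The macrophage mean went the other way: 5.43 in affected femur (4.62 to 6.44) against 7.35 in non-affected femur (6.23 to 8.22), and 8.60 in affected humerus (7.18 to 9.71) against 7.81 in non-affected humerus (5.63 to 9.08). The osteoclast, endothelial and adipocyte means had the same signs as the macrophage mean, but not all genes of these lists did. The osteoclast mean (4 of 7 genes on the array) was 7.13 in affected against 7.68 in non-affected femur, and 9.62 in affected against 8.71 in non-affected humerus. The endothelial mean (6 of 7 genes on the array, 5 above the filter) was 5.54 in affected against 6.23 in non-affected femur, and 7.71 in affected against 7.05 in non-affected humerus. The adipocyte mean (3 of 5 genes) was 6.28 in affected against 6.58 in non-affected femur, and 7.52 in affected against 6.85 in non-affected humerus. Of its genes only FABP4 had these signs (-1.26 in the femur, 1.93 in the humerus). LEP differed by 0.31 and -0.08, and ADIPOQ by 0.04 and 0.16. Among osteoclast genes CTSK and ACP5 had them, while CALCR differed by 0.08 and -0.19 and ATP6V0D2 by 0.16 and 1.49. Among endothelial genes PECAM1, CDH5, TEK and VWF had them, while ESAM differed by -0.10 and -0.08 and KDR by 0.18 and -0.03. Neutrophil genes (5 of 7 on the array) had nearly the same mean in affected and non-affected femur (4.85 and 4.84), and in the humerus 8.37 in affected samples (5.14 to 10.66) against 6.50 in non-affected ones (4.57 to 11.44). Hypertrophic, osteoblast and erythroid means were higher in affected samples at both sites, with overlapping ranges and not by all their genes. In the femur they were 7.34, 7.25 and 5.95 in affected against 6.52, 6.83 and 5.42 in non-affected samples. In the humerus they were 9.51, 8.90 and 6.78 against 9.06, 8.44 and 6.38. AIF1 lay at the floor in 2 of 21 samples and TYROBP and FCER1G in 1 each, and no macrophage gene lay at the floor throughout. In samples of whole tissue, fewer cells of a type and less RNA per cell cannot be told apart.

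TGFB3 had a lower mean in affected cartilage by both probe sets. TGFB3-a read 5.55, 4.67, 4.70 and 5.51 in affected femur, against 5.77, 5.84, 5.88 and 5.96 in non-affected femur. All 4 affected samples lay below all 4 non-affected ones, and the affected samples formed a low and a high pair while the non-affected ones were tight (SD 0.49 against 0.08). The difference was -0.75 ± 0.22 (95% interval -1.22 to -0.29), or 0.593 times, with p = 0.00275 and an adjusted p of 0.0878 by limma; the exact permutation p was 0.0286, the smallest that 4 against 4 samples allow. It passed the threshold when femur affected 1 or femur affected 4 was left out (adjusted p = 0.0433 and 0.0465) and when all 23 arrays were kept apart (adjusted p = 0.0457). Its affected femoral mean of 5.11 lay under the filter value, and without the filter its adjusted p was 0.0946. In the humerus its values ran from 5.001 through 5.42 to 6.04 in affected samples, against 5.44, 5.65 and 5.85 in non-affected samples, and the affected group spanned the other on both sides.

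The second TGFB3 probe set, TGFB3-b, read 9.20, 9.76, 9.35 and 9.05 in affected femur, against 10.19, 9.84, 9.75 and 9.88 in non-affected femur. In the humerus it ran from 8.08 through 8.86 to 9.40 in affected samples, against 8.98, 9.14 and 9.63 in non-affected samples. One affected femoral sample reached just above the lowest non-affected one, and 5 of 7 affected humeral samples lay below every non-affected one. The difference was -0.57 ± 0.22 in the femur (limma adjusted p = 0.165) and -0.39 ± 0.17 in the humerus (limma adjusted p = 0.759). Over both sites it was -0.46 ± 0.13 (limma adjusted p = 0.597), the 70th smallest p of 16799 in a comparison without a call. Although the group differences shared a sign, the TGFB3 probe sets did not track each other between samples (r = 0.28 over 21 samples and 0.14 after group means were subtracted).

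TGFB2, the ligand with the most probe sets, showed little by status. In the femur TGFB2-c read 6.77, 6.41, 6.68 and 6.80 in affected samples, against 6.96, 6.90, 6.89 and 6.95 in non-affected samples. These groups did not overlap, yet the gap was small: -0.26 ± 0.18 (limma adjusted p = 0.436; exact permutation p = 0.0286). In the humerus the same probe set differed by 0.12 with wide overlap. The other 3 TGFB2 probe sets differed by between -0.33 and 0.06 in the femur and between -0.05 and 0.09 in the humerus, and their 95% intervals lay within -0.76 and 0.50 in the femur and within -0.39 and 0.48 in the humerus.

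These counts were read against the whole array. The femoral status comparison had 192 calls by limma, or 1.14%, and 0 of the 8 ligand probe sets, of which 2 had an unadjusted p under 0.05 beside 20.4% of all. Femoral groups did not overlap in 2 of the 8, both lower in affected samples, beside 5.07% of all probe sets in that direction. The share of all probe sets in either direction is not given here and can only be as large or larger, so the 2 of 8 are not read as an excess. In the humerus limma called 0 of all probe sets (0.0%) and 0 of the 8, with 3 at an unadjusted p under 0.05 beside 6.55% of all. Over both sites it again called 0 of all (0.0%) and 0 of the 8, with 2 at an unadjusted p under 0.05 beside 7.28% of all.

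**Figure D3:**
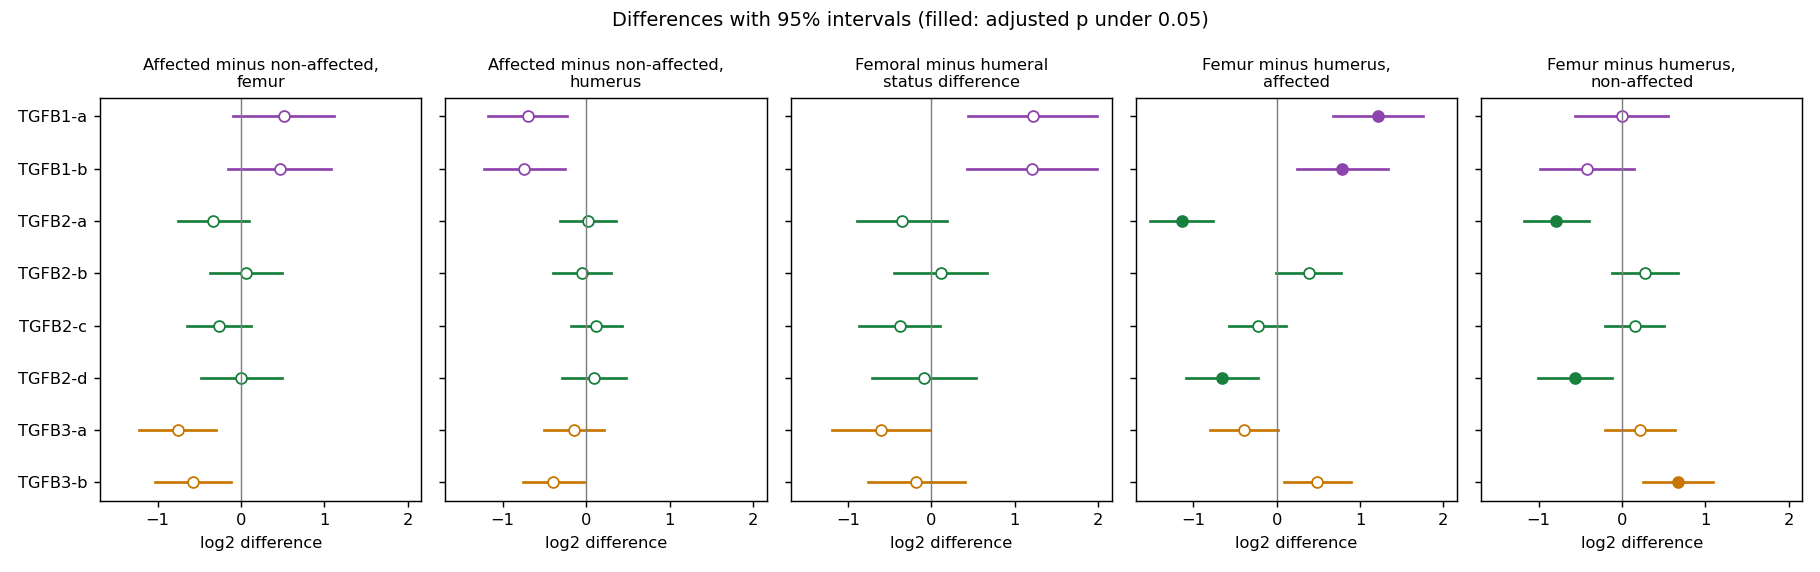
Log2 differences (horizontal axes) with 95% intervals for the 8 ligand probe sets: the status difference (affected minus non-affected) at each site, the femoral minus the humeral status difference, and femur minus humerus in affected and in non-affected cartilage. Filled points have an adjusted p under 0.05; the TGFB1 points lie right of 0 in the femur and left of 0 in the humerus, and filled points occur only in the panels that compare sites.

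The second question was how the ligands differed between the joints. Over both statuses limma called 5 of the 8 ligand probe sets between femur and humerus, 3 higher and 2 lower in the femur, beside 51.8% of all probe sets called (17.6% higher and 34.2% lower). With arrays centred on their medians that balance turned, to 29.2% higher and 22.4% lower, and with quantile normalised arrays to 28.0% and 23.2%, while 3 ligand probe sets were called higher and 2 lower under each. Without femur affected 2 or femur affected 4 the count of called ligand probe sets was 3. The 3 ligands did not move as a group: TGFB3 and TGFB1 each had a probe set that was higher in the femur, while TGFB2 had 2 that were lower and 1 that was higher.

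TGFB2-a had the largest difference between sites among the 8 over both statuses (-0.97 ± 0.13, limma adjusted p = 1e-05). Its femoral mean of 5.03 lay under the filter value of 5.30, so it passed the filter through the humerus (mean 5.997), where it is high; in a fit of all 23999 probe sets without the filter its adjusted p was 1.09e-05. TGFB2-a read 4.9995, 4.81, 4.31 and 5.35 in affected femur, against 5.60, 6.004 and 6.22 as lowest, median and highest of the affected humerus. In non-affected cartilage it read 5.63, 4.93, 5.26 and 4.98 in the femur, against 5.62, 5.94 and 6.33 in the humerus. Every affected femoral sample lay below every affected humeral sample, and the non-affected groups touched at one sample. It was lower in the femur, with a difference of -1.14 ± 0.18 in affected cartilage (limma adjusted p = 0.000149, and 0.000171 without the filter) and of -0.79 ± 0.19 in non-affected cartilage (limma adjusted p = 0.00341, and 0.00402 without the filter).

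TGFB2-d was also lower in the femur, with a difference of -0.61 ± 0.15 over both statuses (limma adjusted p = 0.0018). Within status its differences were -0.65 in affected and -0.56 in non-affected cartilage (limma adjusted p = 0.0183 and 0.0456). Both within-status calls were lost when arrays were centred on their medians (adjusted p = 0.0539 and 0.145) or quantile normalised (0.0541 and 0.163). That of affected cartilage was also lost without femur affected 2 or 4. That of non-affected cartilage was lost without femur non-affected 3, 4 or 5, humerus non-affected 3, 4 or 6, or humerus affected 8, with an adjusted p of up to 0.114, and with no filter (0.0524).

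TGFB2-b went the other way, higher in the femur by 0.33 ± 0.13 over both statuses (limma adjusted p = 0.0397). Leaving out any one of 11 samples ended that call: femur affected 1, 2 or 4, femur non-affected 1/2 or 3, humerus affected 1, 4, 5/6 or 8, or humerus non-affected 3 or 6 (adjusted p up to 0.0841). In affected cartilage alone it was called only when arrays were centred or quantile normalised (adjusted p = 0.0329 and 0.0302). The 4 TGFB2 probe sets thus disagreed on direction, and TGFB2-c did not differ by more than its error (-0.04 ± 0.12). Between samples, TGFB2-c and TGFB2-d tracked each other (r = 0.66, and 0.89 after group means were subtracted), whereas TGFB2-b ran against both (r = -0.42 and -0.63).

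TGFB1 differed between sites in affected cartilage. TGFB1-a was 1.21 ± 0.26 higher in affected femur than in affected humerus, or 2.31 times (limma adjusted p = 0.0014), and the groups did not overlap. In non-affected cartilage TGFB1-a had nearly the same mean at both sites, at 8.68 ± 0.39 in the femur and 8.69 ± 0.37 in the humerus (SD, n = 4 and 6), a difference of -0.005 with a 95% interval of -0.56 to 0.55. TGFB1-b was 0.79 ± 0.26 higher in affected femur (limma adjusted p = 0.0231), a call lost without femur affected 2 (adjusted p = 0.0838) and with array weights (0.70, adjusted p = 0.0564). In non-affected cartilage TGFB1-b differed by -0.42 ± 0.27 (limma adjusted p = 0.229), and over both statuses by 0.20 ± 0.23 (limma adjusted p = 0.471), so it was not called in either. The difference between these site effects is the interaction given above, which limma did not call. Over both statuses TGFB1-a was 0.62 higher in the femur (limma adjusted p = 0.0255), also lost without femur affected 2 or 4 (adjusted p = 0.0674 and 0.0505).

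TGFB3 differed between sites mainly through TGFB3-b, which was 0.58 ± 0.14 higher in the femur over both statuses (limma adjusted p = 0.00177). In non-affected cartilage all 4 femoral samples lay above all 6 humeral ones, with a difference of 0.67 ± 0.20, or 1.59 times (limma adjusted p = 0.0143). In affected cartilage it was 0.49 ± 0.20 higher (limma adjusted p = 0.0529), and it passed the threshold when arrays were centred (adjusted p = 0.0123), quantile normalised (0.0154) or all kept apart (0.0406), and without femur affected 4, humerus affected 3 or 8, or humerus non-affected 1 (0.0222 to 0.0499). TGFB3-a differed by -0.10 ± 0.15 over both statuses, and its difference of -0.39 in affected cartilage passed the threshold only without femur affected 1 among the alternatives run (adjusted p = 0.0478). Within affected cartilage limma called 4 of the 8 ligand probe sets beside 38.5% of all (2 of 8 without femur affected 2), and within non-affected cartilage 3 of 8 beside 36.6%. Groups did not overlap in 2 of 8 in affected cartilage (20.2% of all) and in 1 of 8 in non-affected cartilage (21.1%).

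The site comparisons depend on how the arrays are scaled. The median of all tested probe sets lay 0.12 lower in the femur over both statuses, and centring the arrays on their medians moved it up by 0.17. Under that scaling the differences of TGFB2-c and TGFB3-a over both statuses, and of TGFB1-a in non-affected cartilage, changed sign. Markers of cells other than chondrocytes were also unequal between the sites, and not all in one direction. The osteoclast mean ran from 6.67 to 7.58 in affected femur against 8.17 to 10.53 in affected humerus. For non-affected samples its range was 7.35 to 8.15 (femur) and 7.31 to 10.47 (humerus). CALCR of this list was higher in the femur, at 6.58 (affected) and 6.49 (non-affected) beside humeral means of 5.77 and 5.96. So was the skeletal muscle mean (6 of 8 genes on the array), at 6.43 (affected) and 6.49 (non-affected) beside humeral means of 5.31 and 4.91. Its ranges overlapped, and its gene MYH7 was lower in affected femur (5.29) than in affected humerus (5.70). Neutrophil genes ran from 4.13 to 6.25 in affected femur against 5.14 to 10.66 in affected humerus. In non-affected cartilage they ran from 4.52 to 5.04 in the femur against 4.57 to 11.44 in the humerus. The hypertrophic list (5 of 6 genes on the array), which is of chondrocytes, differed between the sites too, with overlapping ranges. Affected samples averaged 7.34 (6.01 to 9.06) at the femur and 9.51 (7.21 to 10.28) at the humerus. Non-affected samples averaged 6.52 (5.69 to 8.53) and 9.06 (5.95 to 10.11). Its gene IHH was higher in the femur, at 8.06 (affected) and 7.89 (non-affected) beside humeral means of 7.665 and 7.74. Array measures differed too: 3.75% of values lay at the floor in femoral samples (2.57 to 4.50) against 1.70% in humeral ones (0.88 to 2.35), and the actin 3′ minus 5′ signal was 2.78 ± 0.18 (SD, n = 8) in femoral against 3.21 ± 0.29 (SD, n = 13) in humeral samples. The part of these lists and measures in the ligand differences was not tested.

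Ordered by mean, TGFB1-a ran from affected femur (9.19) through non-affected humerus (8.69) and non-affected femur (8.68) to affected humerus (7.98). The first and the last step exceeded the larger SD of the groups beside them, and the middle one did not. By TGFB1-b the order was the same and no step exceeded the larger SD. TGFB3-b ran from non-affected femur (9.92) through affected femur (9.34) and non-affected humerus (9.25) to affected humerus (8.85), and only the first step exceeded the larger SD. TGFB2-a had both humeral groups above both femoral groups, with one step beyond the larger SD, that between the sites.

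Genes with a pattern like that of a ligand were taken by Pearson's r over the 21 samples after group means were subtracted, among 8063 probe sets with a gene symbol. For TGFB1-a was most like the immediate early genes IER5 (r = 0.81) and IER3 (r = 0.80), followed by SMOX, which oxidises spermine (r = 0.76), and CILP, a cartilage matrix protein known to bind TGF-beta (r = 0.75). TGFB1-b was most like TMUB1 (r = 0.83), again SMOX (r = 0.80), the amino acid transporter subunit SLC3A2 (r = 0.77) and PDLIM7 (r = 0.75). TGFB3-b was most like WWP2, a ubiquitin ligase (r = 0.82), DECR2 (r = 0.79) and SCD, the desaturase of fatty acids (r = 0.73). TGFB2-d was most like TMCO1 (r = 0.87) and SERBP1 (r = 0.87). These samples share site, array scaling and tissue make-up, and the coefficients are descriptions.

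The rest of the pathway was read by 76 probe sets in 6 lists. By limma none was called by status at either site or over both, nor in the interaction. The receptor TGFBR1, which carries the kinase that phosphorylates the Smads, followed the signs of TGFB1 by both of its probe sets: its differences were 1.38 and 0.59 in the femur and -0.72 and -0.37 in the humerus. PMEPA1, a membrane protein that TGF-beta induces and that in turn sequesters Smads, did so by all 5 of its probe sets. Their differences ran from 0.33 to 0.66 in the femur and from -0.71 to -0.36 in the humerus, with interaction adjusted p of 0.103 to 0.224 by limma. Of all tested probe sets 51.1% were positive in the femur and 53.4% negative in the humerus. The share with both signs was not counted, so the agreement of these probe sets is a description only.

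The PMEPA1 probe set with the smallest interaction p averaged 9.03 ± 0.42 in affected femur against 8.37 ± 0.44 in non-affected femur (SD, n = 4 each). In the humerus it averaged 8.06 ± 0.56 in 7 affected samples against 8.77 ± 0.14 in 6 non-affected ones, and the affected samples spread wider. Across the 21 samples the 5 PMEPA1 probe sets correlated with TGFB1-a at r = 0.34 to 0.77, and at r = 0.26 to 0.56 after group means were subtracted. With the other TGFB1 probe set the latter range was 0.01 to 0.33, so that link depended on the probe set. PMEPA1 was chosen for this description after its values were seen.

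Among Smad mediators and brakes as a list (12 probe sets of 6 genes), 10 differences were positive in the femur, with a median of 0.25 beside 0.01 over all tested probe sets, of which 51.1% were positive. In the humerus 0 of the 12 were positive, with a median of -0.26 beside -0.01 over all, of which 46.6% were positive. PMEPA1 supplies 5 of the 12, and BAMBI 2, so the probe sets are not independent. Receptors and co-receptors had 2 of 6 positive in the femur and 1 of 6 in the humerus, and TGF-beta responsive genes 10 of 17 and 7 of 17. The latent complex and its activators had 8 of 16 positive in the femur and 13 of 16 in the humerus. These 16 probe sets stand for 11 genes and are not independent either: every THBS1 and FBN1 probe set was positive in the humerus. The tested genes of this list were FBN1, THBS1, integrin subunits and proteases, with no latent TGF-beta binding protein among them.

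**Figure D4:**
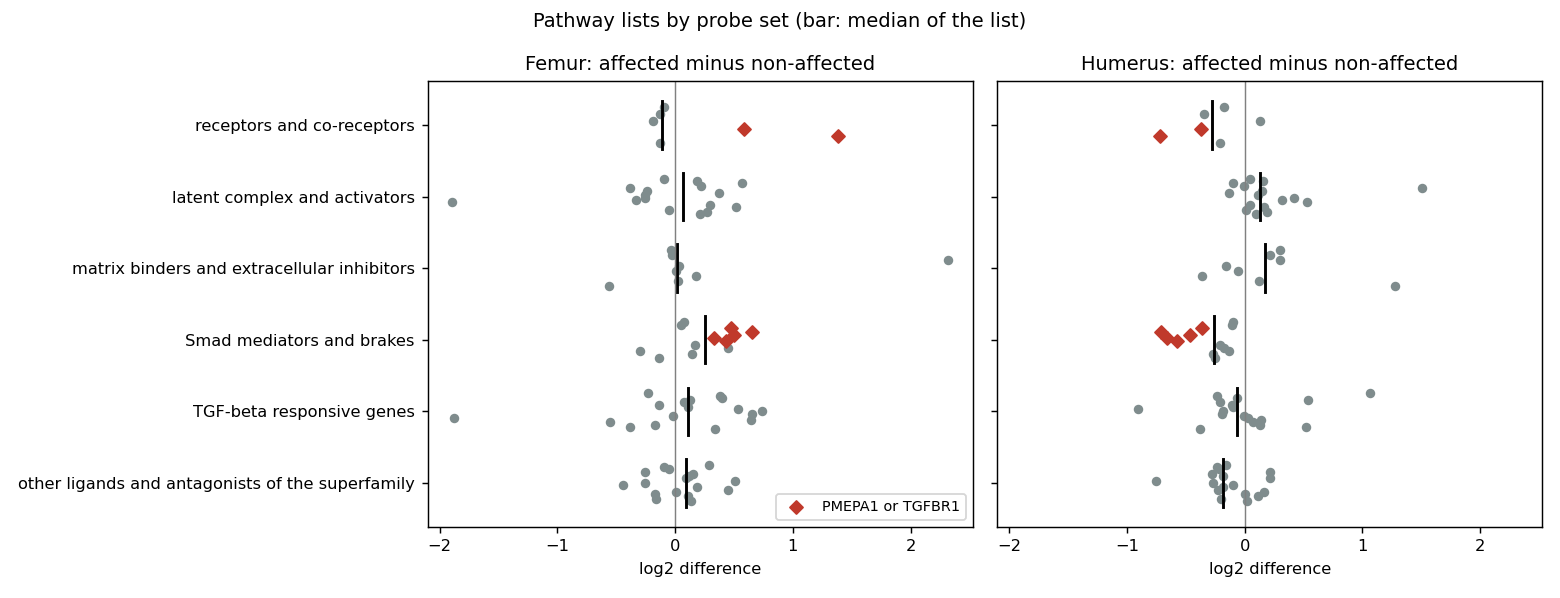
Log2 difference, affected minus non-affected (horizontal axes), of the tested probe sets of 6 TGF-beta pathway lists in the femur (left) and the humerus (right). Each point is a probe set, black bars are list medians and diamonds mark PMEPA1 and TGFBR1, which lie right of 0 in the femur and left of 0 in the humerus.

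Among the pathway genes with the smallest p in their list by status was ASPN, an asporin of the matrix that binds TGF-beta. In the femur ASPN differed by 2.32 ± 0.64 (7.95 in affected against 5.63 in non-affected samples, limma adjusted p = 0.0755). PLAU, a protease that helps to release the ligands, differed there by -1.89 ± 0.69 (limma adjusted p = 0.147). In the other femoral lists TGFBR1, STRAP, TIMP1 and GDF11 had the smallest p. In the humerus FN1, the fibronectin of the matrix, differed by -0.91 ± 0.35 with 1 of its 3 probe sets (limma adjusted p = 0.728), and by -0.11 and -0.09 with the others, and the integrin subunit ITGB3 by 1.51 ± 0.64 (limma adjusted p = 0.759).

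Between sites each list had called members, beside 51.8% of all probe sets. Over both statuses limma called 2 of 6 receptor probe sets, both higher in the femur, and 7 of 16 of the latent complex and activators, 2 higher and 5 lower. It called 5 of 8 matrix binders, 2 higher and 3 lower, and 5 of 12 Smad mediators, 1 higher and 4 lower. Of the responsive genes it called 10 of 17, 3 higher and 7 lower. Higher in the femur were TGFBR3, the co-receptor that presents TGFB2, by 0.49, TNC, a matrix glycoprotein, by 1.14, and HTRA1, a serine protease, by 0.46 with one probe set while its other one differed by 0.07 (limma adjusted p = 0.715). Lower in the femur were BAMBI, a decoy receptor (-1.03 and -0.68), ACTA2, the smooth muscle actin (-2.86), and LUM, the proteoglycan lumican (-2.96). THBS1, the thrombospondin that activates the latent complex, was lower by one of its 5 probe sets (-0.94) and higher by another (0.42). Of 17 probe sets of other ligands and antagonists of the superfamily 5 were called, among them the activin receptor ACVR2B, higher in the femur (0.78). ITGB3, MMP9, A2M and the activin antagonist FST are among the probe sets called lower, but their femoral means (4.57, 5.19, 5.12 and 5.04) lay under the filter value and they passed it through the humerus. In the fit without the filter these 4 were called too. The other A2M probe set, above the filter value at both sites, was called higher in the femur (0.46, limma adjusted p = 0.00971).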

How the data were processed

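Values are log2 signals per probe set and array, used as the authors deposited them. The submitters' processing notes name GCOS 1.1.1, and the labels' protocols give biotinylated cRNA on the Affymetrix Porcine Genome Array. Normalisation: not given in the sources used here. Its effect on the differences between sites is unknown. The number of arrays, not a read depth, limits the precision.

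The table holds 24123 probe sets on 23 arrays. After 124 controls, those whose mean signal fell below the 30th percentile (5.30) were left out, which left 16799. Arrays of a group whose values differed by an SD under 0.25 (2 pairs) were averaged, because they could hold the same RNA. limma 3.58.1 in R 4.3.3 fitted group means over all 21 samples (lmFit, eBayes) with p-values adjusted by Benjamini and Hochberg within each of 7 comparisons. Status within a site, site within a status and the interaction came from the fit of 4 group means, and the comparisons over both sites or statuses from additive models. Single probe sets were also compared by two-sided exact permutation tests (scipy 1.17.1). The fitting code was tested on simulated data. Gene names come from the platform annotation; the 3 ligand identifiers matched the same symbols in the RefSeq gene table.

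Named were all ligand probe sets, the 5 most alike genes per ligand probe set at most, and in each pathway list up to 4 called members or the smallest p. The members, lists and comparisons were chosen with earlier results of these data known. TGFBR1 and PMEPA1 were described across both sites after their values were seen.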

Additional observations from a re-analysis of the deposited data

Results flagged for a closer look

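Among 32 groups of ligand values (8 probe sets in 4 groups), 3 held a sample set well apart from the rest by Dixon's test, and chance alone flags about 1 group in 20. For TGFB1, femur affected 2 read 9.58 by TGFB1-a while the other 3 affected femoral samples read between 9.06 and 9.07. The same sample read 9.51 by TGFB1-b, against 8.98 to 9.02 in the others. For TGFB2, humerus affected 1 read 5.60 by TGFB2-a, against 5.95 to 6.22 in the other 6 affected humeral samples. The cause was not tested in any of them.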

How the results depend on the processing

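The alternatives changed one choice at a time: 23 arrays as separate samples, no filter or a filter at the 50th percentile, arrays centred or quantile normalised, a trended and robust prior, array weights, 1 value per gene, only the arrays of the groups compared, and each sample left out in turn. With 1 value per gene the counts below are of genes, and they were set against the number of genes with a called probe set. With all samples kept, 56 counts of called ligand probe sets stayed within 1.5 times the reported count and 4 did not: femoral status gave 1 with 23 arrays; site over both statuses gave 3 with the 50th-percentile filter, which drops 3 of the 8 probe sets, 2 of them called, and 1 with 1 value per gene; site in non-affected cartilage gave 1 with 1 value per gene. Leaving out a sample gave 0 to 1 in femoral status, 3 to 5 for site over both statuses, 2 to 5 in affected and 2 to 3 in non-affected cartilage, and 0 throughout in the other comparisons; 5 of these counts moved by over 1.5 times, without femur affected 1 or 4 (femoral status), femur affected 2 or 4 (site over both statuses) or femur affected 2 (site in affected cartilage). Over all probe sets, femoral status calls ranged from 4 to 621 and interaction calls from 21 to 224 against 192 and 45; the cause was not tested.

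Differences that changed sign were small and not called. With array weights, humeral status became -0.002 for TGFB2-a and 0.036 for TGFB2-b, status over both sites 0.0546 for TGFB2-b and 0.0068 for TGFB2-c, and site in non-affected cartilage 0.115 for TGFB1-a. Femoral status of TGFB2-d became -0.036 with 23 arrays, -0.032 centred and -0.0265 quantile normalised. Centred or quantile normalised, site over both statuses became 0.127 or 0.142 for TGFB2-c and 0.071 or 0.046 for TGFB3-a, and site in non-affected cartilage 0.178 or 0.144 for TGFB1-a. Leaving out samples, humeral status ran from -0.0535 to 0.089 for TGFB2-a, from -0.148 to 0.0305 for TGFB2-b and from -0.0007 to 0.207 for TGFB2-d. Femoral status ran from -0.0101 to 0.184 for TGFB2-b and from -0.056 to 0.0725 for TGFB2-d, whose interaction ran from -0.202 to 0.0053. Status over both sites ran from -0.063 to 0.0425 for TGFB2-b and from -0.076 to 0.019 for TGFB2-c. Site over both statuses ran from -0.084 to 0.0145 for TGFB2-c, and site in non-affected cartilage from -0.183 to 0.132 for TGFB1-a. No paired analysis was possible because the labels do not say which animals were sibs, and replicate numbers follow accession order.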
